A study of Homo sapiens with 9 samples.

Results

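The genes described here are 43 genes of the unfolded protein response and of the response to amino acid shortage. They were taken by symbol from the 24069 rows of a deposited RNA-sequencing table. All 43 matched a row of their own, none lay in a row that joins several genes, and all 43 were among the 12011 rows that reached 1 FPKM in at least 3 of the 9 libraries and were tested. FPKM is the number of fragments scaled to transcript length and library size. The genes were grouped by role into 12 chaperones and folding factors of the endoplasmic reticulum (ER), 4 genes of ER-associated degradation, 5 genes of ER stress sensing, 7 stress transcription factors and 15 genes known as targets of the factor ATF4, of which 7 are stress effectors, 6 are amino acid enzymes and 2 are tRNA synthetases.

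The study set 2 derivatives named PR1 and PR2, resistant to the kinase inhibitor ponatinib, against the line they came from, LC-2/ad (human lung adenocarcinoma with a CCDC6-RET fusion). RET is among the kinases that ponatinib blocks, and per the labels both derivatives were kept in the drug at 200 nM. The labels name no drug for parental cells, so being resistant and being in the drug cannot be told apart where they are the control. There were 9 libraries, A, B and C from each group. Whether a letter stands for a separate culture is not in the labels, so p-values measure only how far these libraries spread, and that spread may be technical.

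Unfolded proteins in the ER are sensed by membrane proteins. ERN1 (IRE1) splices the messenger RNA of XBP1, ATF6 is cut to release a transcription factor, and EIF2AK3 (PERK) phosphorylates the initiation factor eIF2, which slows translation in general and favours that of ATF4. ATF6 and spliced XBP1 raise ER chaperones and degradation factors, while ATF4, which is also induced by amino acid shortage through another eIF2 kinase, raises genes of amino acid synthesis and uptake, tRNA synthetases and DDIT3 (CHOP). Chaperones and ATF4 targets are therefore described separately. The table gives gene totals, so the splicing of XBP1 and the translation of ATF4 were not measured.

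The promoters of chaperones and ATF4 targets were searched for the sites through which these factors are known to act, and the genes with a match are shown first. RefSeq promoter windows (300 bases, from 250 before to 50 after each listed start, build GRCh38.p14) were found for 38 of the 43 genes. The windows of ERN2, NUPR1, PSPH, SHMT2 and GARS were not among them. Coordinates of that build are given for the sequences only, since the expression values were made on GRCh37 and hg19. Both strands were searched. The ER stress element, written here as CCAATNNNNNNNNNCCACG, was found in 5 of 12 chaperone genes (HSPA5, HSP90B1, CANX, PDIA6 and CRELD2) and in XBP1, against 0.0916% of the 27305 genes of the table. A second form, ATTGGNCCACG, was found in 2 of 12 chaperone genes (SDF2L1 and HYOU1) and in HERPUD1, against 0.0696% of all genes. The last bases of either form can overlap the core ACGTG on the other strand. Stretches around the matches are printed with the matching bases in capitals, for HSPA5 from chr9:125241366-125241434 (minus strand), HSP90B1 from chr12:103930191-103930364 (plus strand), XBP1 from chr22:28800578-28800646 (minus strand) and HERPUD1 from chr16:56931941-56932060 (plus strand), each 5′ to 3′ on the strand of the gene. HSPA5 and XBP1 hold 1 element each, HSP90B1 holds 1 on each strand, and HERPUD1 holds an ATF4 composite site on the opposite strand and then the second form.
HSPA5: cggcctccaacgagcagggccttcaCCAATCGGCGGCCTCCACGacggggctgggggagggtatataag
HSP90B1: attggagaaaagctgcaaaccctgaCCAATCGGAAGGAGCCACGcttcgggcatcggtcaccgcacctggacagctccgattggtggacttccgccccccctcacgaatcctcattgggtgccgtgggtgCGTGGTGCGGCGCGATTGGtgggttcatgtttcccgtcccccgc
XBP1: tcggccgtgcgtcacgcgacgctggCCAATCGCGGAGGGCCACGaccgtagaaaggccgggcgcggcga
HERPUD1: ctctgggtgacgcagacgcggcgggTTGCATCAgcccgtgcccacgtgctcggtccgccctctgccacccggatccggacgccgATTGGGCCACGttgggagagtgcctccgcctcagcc

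The ATF4 composite site, searched as TGATGNAA, was found in ASNS and CHAC1 among the 12 ATF4 targets with a window, and in ATF3, CEBPG and HERPUD1. It was found in 4.46% of all genes and in none of the 12 chaperones. The 2 targets with a match are printed, ASNS from chr7:97872444-97872501 (minus strand) and CHAC1 from chr15:40953237-40953294 (plus strand), where the match is on the opposite strand to the gene. Capitals mark the matching bases.
ASNS: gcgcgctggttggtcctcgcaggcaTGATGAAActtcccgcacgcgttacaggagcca
CHAC1: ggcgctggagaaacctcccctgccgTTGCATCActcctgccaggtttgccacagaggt

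The core ACGTG, which overlaps both forms of the ER stress element where a T follows CCACG and to which spliced XBP1 and ATF6 are known to bind, was found in 7 of 12 chaperone genes, 3 of 12 ATF4 targets and 24.9% of all genes. A match describes letters in a window and is not evidence that a factor binds there.

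The libraries were checked against markers of cell types. Of the epithelial markers EPCAM, KRT8, KRT18, KRT19 and CDH1, all 5 reached 1 FPKM in at least 3 libraries, as did all 3 lung epithelial markers. The surfactant gene SFTPB was at 40.6 to 144 FPKM in parental, 3.46 to 6.01 in PR1 and 0.0204 to 0.0352 in PR2 libraries. NAPSA, a protease of alveolar cells, was at 9.10 to 16.1, 41.3 to 52.8 and 4.42 to 17.5 FPKM. Their part in the differences of the stress genes was not tested. KRT18 was low, between 2.34 and 8.17 FPKM, where KRT8 was at 1544 to 2622. Whether the low KRT18 values come from the cells or from the handling of reads was not tested. Of 6 fibroblast markers only COL1A1 passed that level (at most 10.04 FPKM), and COL1A2, COL3A1, DCN and PDGFRB were at or near 0. Of 5 blood markers only CD14 passed it. The summed blood markers were 3.48 to 9.16 FPKM in parental, 1.22 to 1.74 in PR1 and 0.716 to 1.08 in PR2 libraries, with CD14 making up most of each sum and PTPRC at most 0.0196. Whether CD14 bears on the stress genes was not tested. None of 3 endothelial markers passed. Relative depth, read from the commonest ratio of low values between parental A and each library, ran from 0.76 to 1 of that of parental A.

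Few of the stress genes differed between the groups. In PR1 against parental cells 0 of 43 rose and 2 of 43 (4.65%) fell, ERN1 and GDF15, where 7.56% of the 12011 rows rose and 7.98% fell. In PR2 against parental cells 0 rose and 4 (9.30%) fell, EDEM1, ERN2, CEBPB and GDF15, where 13.6% of all rows rose and 9.83% fell. In PR2 against PR1, 1 of 43 (2.33%) rose, DDIT3, and 2 (4.65%) fell, EDEM1 and ERN2, where 11.0% of all rows rose and 8.92% fell. Calls are at a limma adjusted p under 0.05 over all rows, and fold changes are differences of mean log2(FPKM + 1) over 3 libraries per group. The main fit, used where no other is named, had no term for the letter. At an unadjusted p under 0.05, limma put 0 genes higher and 9 (20.9%) lower in PR1, where 15.4% of all rows were higher and 14.2% lower. It put 1 (2.33%) higher and 7 (16.3%) lower in PR2, beside 20.2% and 15.8% of all rows, and 4 higher and 4 lower (9.30% each) in PR2 against PR1, beside 18.2% and 15.5%. PR1 and PR2 were compared with the same 3 parental libraries, so falls in both are not independent. In 2 comparisons the letters were taken as pairs, and a fit with the letter as a block was also run. Its letter term was shared by all 9 libraries. It therefore also paired PR2 with parental libraries, whose letters were not taken as pairs, and its p-values rest on that. The block fit gave 0 rises and 4 falls (9.30%) in PR1, beside 13.4% and 12.3% of all rows. In PR2 against PR1 it gave 3 rises (6.98%) and 2 falls (4.65%), beside 17.1% and 14.5%. With all 9 libraries the shares that fell at the adjusted p were below or near those of all rows, and the shares that rose were below them. At the unadjusted p the share lower in PR1 (20.9%) was above that of all rows (14.2%). Without parental A, 10 of 43 (23.3%) fell in PR1, where 7.99% of all rows did, and 8 (18.6%) fell in PR2, where 10.4% did.

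**Figure D1:**
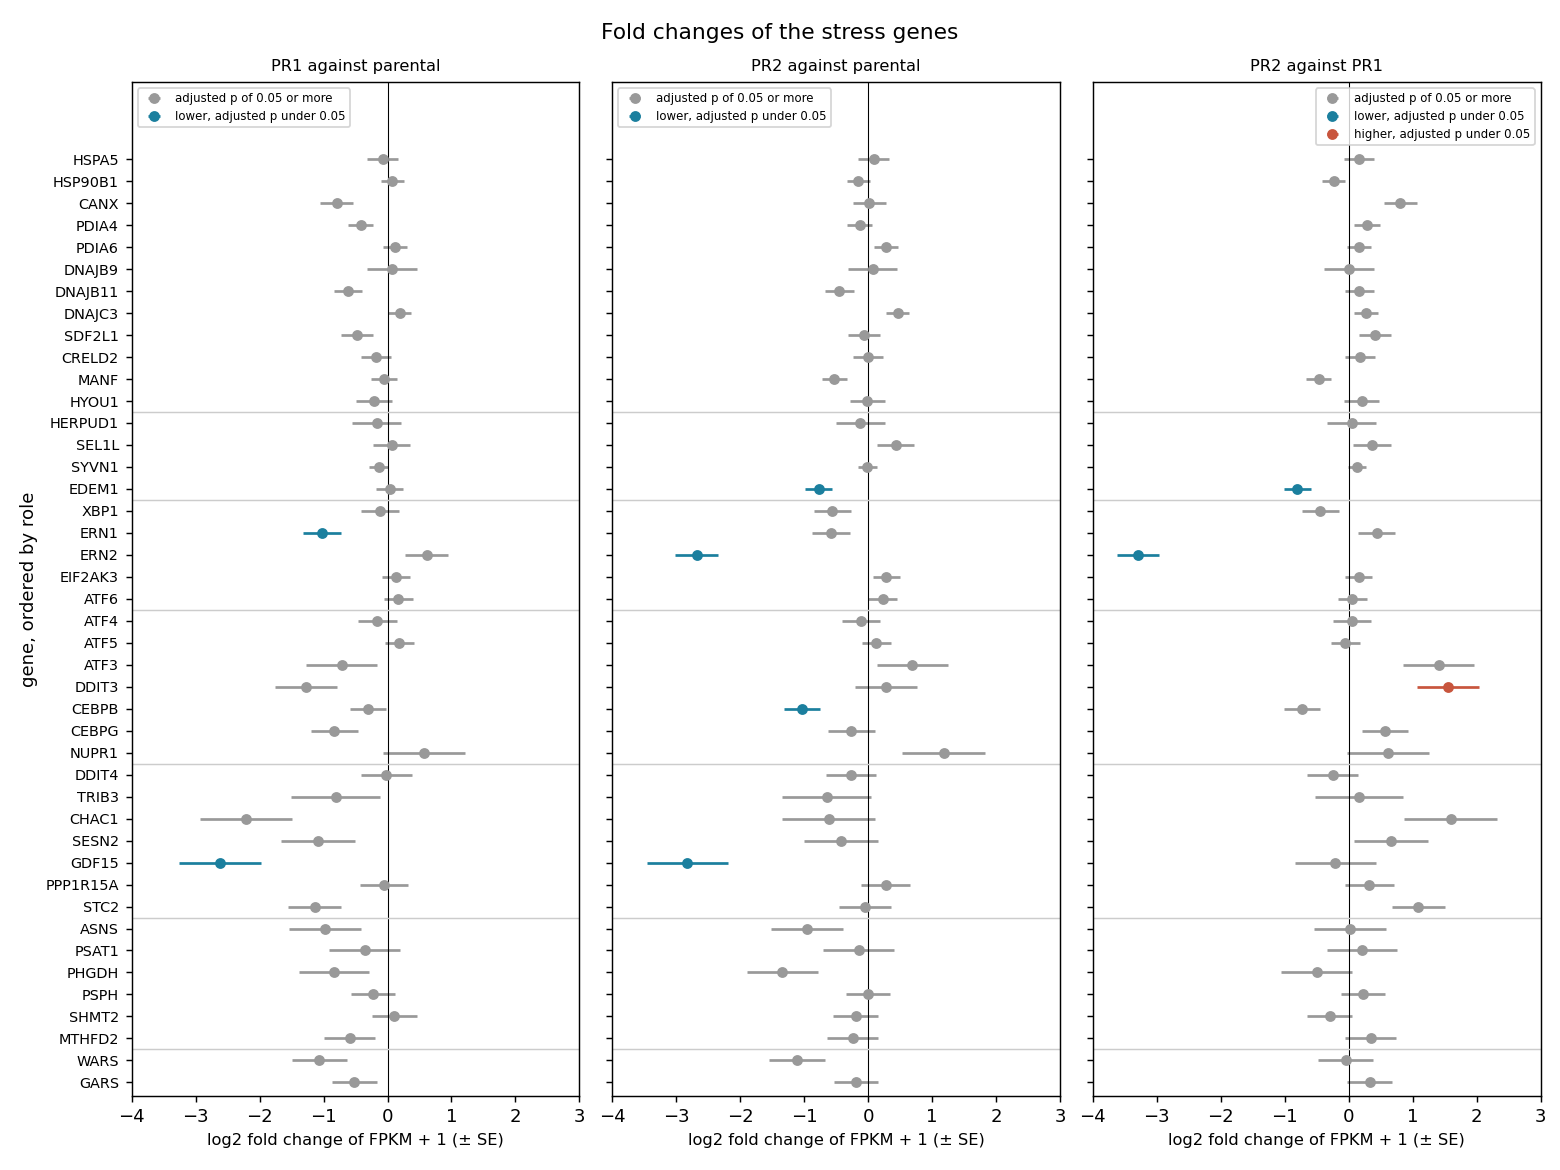
Log2 fold change of FPKM + 1 with its standard error (x axis) for each of the 43 genes (y axis, ordered by role) in 3 comparisons. Coloured points passed a limma adjusted p of 0.05: ERN1 and GDF15 in PR1, EDEM1, ERN2, CEBPB and GDF15 in PR2, and DDIT3, EDEM1 and ERN2 between the derivatives.

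None of the 12 ER chaperones passed the threshold in a comparison of groups in the main fit, which had no term for the letter. With the letter as a block CANX and DNAJB11 fell in PR1, and CANX rose in PR2 against PR1, as given below. HSP90B1 (GRP94), the highest of them by mean FPKM (279), stood at 335, 260 and 257 FPKM in parental libraries A, B and C, at 319, 252 and 327 in PR1 and at 231, 241 and 292 in PR2. HSPA5 (BiP), the chaperone that also holds the ER sensors inactive, stood at 171, 144 and 254 FPKM in parental cells, 191, 146 and 192 in PR1 and 181, 166 and 249.9 in PR2. For both genes the groups overlapped in every comparison. The log2 fold changes of HSPA5 were −0.07 in PR1 and 0.09 in PR2 (SE 0.24 each, limma adjusted p = 0.872 and 0.831), and those of HSP90B1 were 0.08 and −0.15 (SE 0.18 each, limma adjusted p = 0.821 and 0.580).

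Over the 12 chaperones the fold changes against parental cells ran from −0.79 to 0.19 in PR1 and from −0.53 to 0.46 in PR2, with medians of −0.13 and −0.0046, beside 0.05 and 0.03 over all rows tested. Between PR2 and PR1 their median was 0.17, beside 0.0038. At an unadjusted p under 0.05 limma put 2 of the 12 (16.7%) apart in each comparison, beside 29.6% of all rows in PR1, 36.0% in PR2 and 33.6% in PR2 against PR1. CANX (calnexin, a lectin chaperone) and DNAJB11 (a co-chaperone of HSPA5) are added here after their values were seen, because the fit with the letter as a replicate block changed their calls where the letters were taken as pairs. CANX was at 323, 208 and 380 FPKM in parental cells, 185, 126 and 208 in PR1 and 327, 258 and 315 in PR2. It was the lowest in PR1 within each letter. Its log2 fold change in PR1 was −0.79 (limma adjusted p = 0.0636, and 0.00530 with the block), and in PR2 against PR1 it was 0.81 (0.0501, and 0.00405 with the block). Without parental B it passed in both (limma adjusted p = 0.0285 and 0.0312). Of 17 alternatives, 6 made the difference of CANX between PR2 and PR1 pass (limma adjusted p from 0.00405 to 0.0476). They included quantile normalization (0.0393) and only the 2 groups (0.0394). DNAJB11 differed by −0.62 in PR1 (limma adjusted p = 0.0907, and 0.00702 with the block), and it passed there without PR1 A or the 3 A libraries (0.0470 and 0.0476). MANF, DNAJC3 and PDIA6 are also added after their values were seen, and the share of all rows without overlap was not counted. MANF, a secreted protective factor, did not overlap between PR2 (68.7 to 76.2 FPKM) and either parental cells (97.4 to 112) or PR1 (79.3 to 138). Its log2 differences were −0.53 and −0.47 (limma adjusted p = 0.0806 and 0.122). The first passed with only the 2 groups and without PR1 A (0.0339 and 0.0238). DNAJC3, an inhibitor of the eIF2 kinases, was at 20.7 to 23.6 FPKM in PR2 and 13.3 to 17.3 in parental cells (0.46, limma adjusted p = 0.10). PDIA6 was at 205 to 228 FPKM in PR2 and 158 to 196 in parental cells (0.28, limma adjusted p = 0.308).

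**Figure D2:**
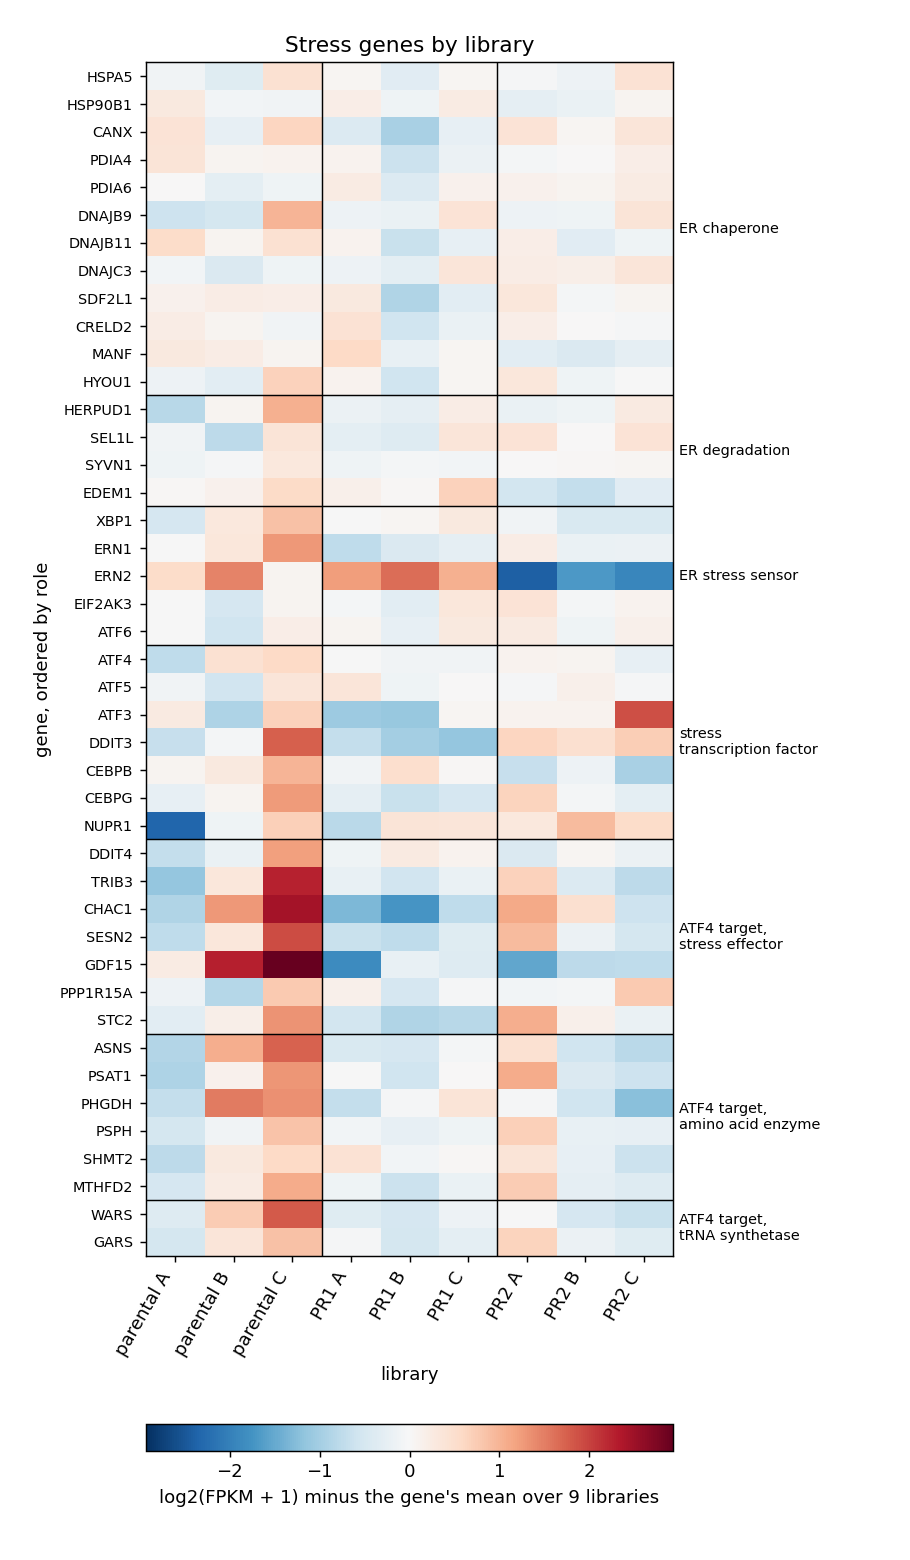
Colour shows log2(FPKM + 1) minus the mean of the gene over 9 libraries, for 43 genes in rows ordered by role and the libraries in columns, with lines between roles and groups. Parental C is red for the ATF4 targets, of which it is the highest library for 14 of 15, and ERN2 is blue in the 3 PR2 libraries.

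Of the genes of ER-associated degradation, EDEM1 fell in PR2. EDEM1, a lectin that directs misfolded glycoproteins to degradation, was at 9.31, 10.01 and 13.9 FPKM in parental cells, 10.1, 9.25 and 15.0 in PR1 and 5.92, 5.16 and 6.96 in PR2. All 3 PR2 libraries lay under the other 6. The log2 fold change was −0.77 against parental cells and −0.81 against PR1 (SE 0.21 each, limma adjusted p = 0.0248 and 0.0237). The call against parental cells was lost when PR2 A, PR2 B, parental B or parental C was left out (limma adjusted p from 0.0513 to 0.0883), and that against PR1 without PR1 C, PR2 B or the 3 A libraries (0.0628 to 0.0879). HERPUD1, an ER membrane protein of the degradation complex and the highest of these genes, was at 26.1, 49.0 and 96.7 FPKM in parental cells, 41.4, 38.5 and 54.8 in PR1 and 40.6, 42.6 and 55.8 in PR2. Parental A and C lay outside the range of all PR1 and PR2 libraries, on opposite sides. Its fold changes were −0.17 in PR1 and −0.12 in PR2 (SE 0.38 each, limma adjusted p = 0.813 and 0.853). SEL1L and SYVN1, partners in the degradation complex, passed the threshold in no comparison, with log2 fold changes between −0.14 and 0.43.

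Of the ER stress sensors, ERN2 fell in PR2 and ERN1 fell in PR1. ERN2 (IRE1 beta), which is known as the form of secretory epithelia, was at 8.45, 16.7 and 5.82 FPKM in parental cells and 14.1, 19.2 and 12.3 in PR1. In PR2 it was at 0.229, 1.03 and 0.733 FPKM, below every other library. Its log2 fold change in PR2 was −2.68 against parental cells and −3.29 against PR1 (SE 0.33 each, limma adjusted p = 0.000357 and 0.000159). These falls passed the threshold under all 17 alternatives tried, with limma adjusted p of at most 0.00501 and 0.00301. The PR1 difference from parental cells was 0.61 (limma adjusted p = 0.253). Because the cells were measured in bulk, fewer cells with a transcript and less of it per cell cannot be told apart.

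ERN1 (IRE1 alpha), the form found in most cells, was at 3.91, 5.28 and 10.97 FPKM in parental cells, 1.94, 2.67 and 3.11 in PR1 and 4.74, 3.35 and 3.40 in PR2. All PR1 libraries lay under those of both other groups. Its log2 fold change in PR1 was −1.02 (SE 0.29, limma adjusted p = 0.0419), a call lost under 9 of 16 alternatives (limma adjusted p up to 0.123), among them leaving out parental B, parental C, any PR1 library, PR2 B or PR2 C. In PR2 ERN1 differed from parental cells by −0.58 (limma adjusted p = 0.187, and −0.99 with 0.0415 without the 3 A libraries) and from PR1 by 0.44 (0.333). XBP1, the transcript that IRE1 splices and the highest gene of this role, was at 68.4, 120 and 177 FPKM in parental cells, 95.2, 100.5 and 118 in PR1 and 90.1, 70.2 and 70.7 in PR2. The PR2 libraries lay under those of PR1, and the parental libraries spanned both. PR2 differed by a log2 of −0.56 from parental cells (limma adjusted p = 0.199) and of −0.44 from PR1 (0.325). The 3 A libraries held the lowest parental and the highest PR2 value of XBP1. Without them XBP1 was lower in PR2 than in parental cells by a log2 of −1.04 (limma adjusted p = 0.0100). Over the 17 alternatives that difference ran from −1.04 to −0.24. The sensors EIF2AK3 and ATF6 stayed between 2.94 and 6.30 and between 9.24 and 17.6 FPKM in all 9 libraries, with fold changes between 0.06 and 0.29 in the 3 comparisons, none past the threshold.

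Of the transcription factors, CEBPB fell in PR2 and DDIT3 was higher in PR2 than in PR1. CEBPB, a bZIP factor that can pair with ATF4, was at 92.5, 106 and 175 FPKM in parental cells, 81.7, 123 and 89.4 in PR1 and 54.8, 78.9 and 45.2 in PR2. Each PR2 library lay under all parental and PR1 libraries. The log2 fold change in PR2 was −1.03 against parental cells (SE 0.28, limma adjusted p = 0.0241) and −0.72 against PR1 (0.0987). The first was lost after quantile normalization and when parental B, parental C, PR2 C or PR2 A was left out (limma adjusted p from 0.0501 to 0.0953).

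DDIT3 (CHOP), a factor linked to cell death under lasting stress, was at 37.9, 33.6 and 39.9 FPKM in PR2 and at 14.5, 11.6 and 10.3 in PR1. The parental libraries ran from 14.5 in A through 23.0 in B to 82.6 in C, a span that held every PR2 library. PR2 was higher than PR1 by a log2 of 1.55 (SE 0.48, limma adjusted p = 0.0481). That call was lost under 10 of 17 alternatives (limma adjusted p up to 0.130), among them leaving out parental B, the 3 A libraries, or any PR1 or PR2 library. PR1 differed from parental cells by −1.27 without passing (limma adjusted p = 0.106), although all PR1 libraries lay under all parental ones, PR1 A narrowly under parental A. It passed without parental A (−1.78, limma adjusted p = 0.0222) and without the 3 A libraries (−1.91, 0.0369). Without parental C, PR2 was higher than parental cells by 0.98 (limma adjusted p = 0.0169).

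ATF4 passed the threshold in no comparison of all 9 libraries. It stood at 225, 517 and 570 FPKM in parental cells, 378, 353 and 355 in PR1 and 410, 402 and 321 in PR2, the highest mean of all 43 genes (392). All 6 derivative libraries lay between parental A and parental B. The log2 fold changes were −0.16 in PR1 and −0.11 in PR2 (SE 0.30 each, limma adjusted p = 0.768 and 0.831). The parental libraries differed by up to 2.53-fold, and without parental A the PR1 difference was −0.58 (limma adjusted p = 0.0494). The 3 A libraries held the lowest parental and the highest PR2 value of ATF4. Without them ATF4 was lower in PR1 by a log2 of −0.62 (limma adjusted p = 0.0387) and in PR2 by −0.59 (0.0342). Over the 17 alternatives its fold changes ran from −0.62 to 0.08 in PR1 and from −0.59 to 0.14 in PR2. ATF3, a factor induced by ATF4 and by other stress, is added after its values were seen. It was at 5.72, 5.70 and 22.4 FPKM in PR2 and 1.98, 1.87 and 5.55 in PR1, and the groups did not overlap. The difference of 1.41 had a limma adjusted p of 0.102, and 0.00456 with the letter as a block. ATF5, CEBPG and NUPR1 passed in no comparison. NUPR1 ran from 1.77 FPKM in parental A to 21.8 in parental C, the widest parental span of the 43 genes at 12.3-fold.

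**Figure D3:**
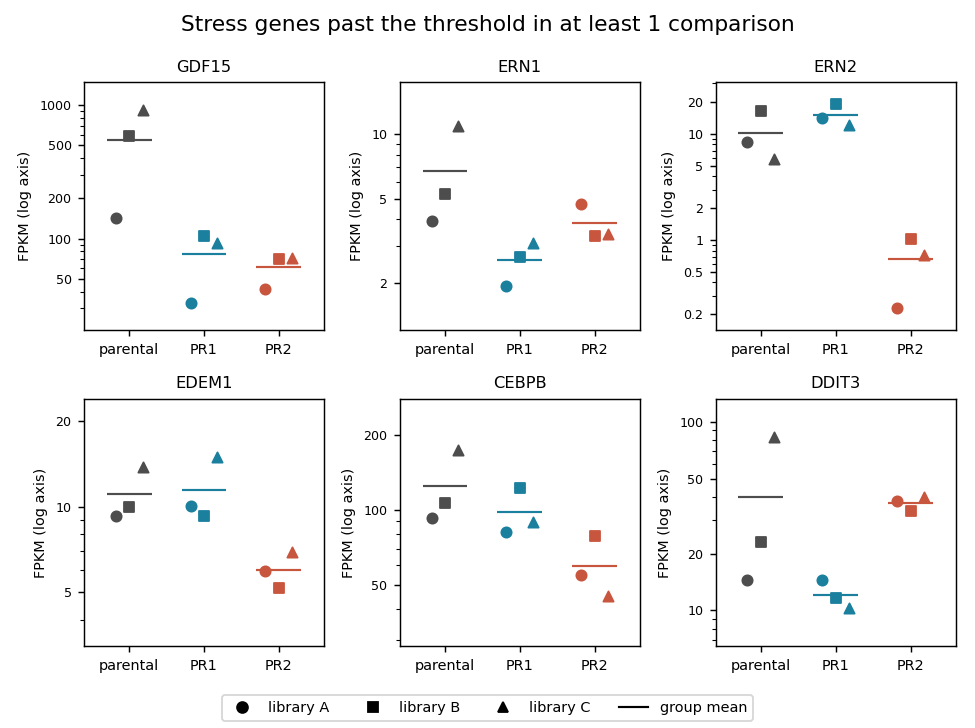
FPKM on a log axis in each of 9 libraries for the 6 genes past the threshold in at least 1 comparison, with the group mean as a line and the letter as the marker. GDF15 is lowest in the A library of each group, and ERN2 lies at 0.229 to 1.03 FPKM in PR2, under all other libraries.

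Most ATF4 targets had lower mean log2 values in the derivatives, but only GDF15 passed the threshold. GDF15, a secreted stress cytokine and the highest of the stress effectors (mean 229.9 FPKM), was at 142, 586 and 927 FPKM in parental cells, 33.1, 104 and 93.2 in PR1 and 41.5, 70.3 and 71.5 in PR2. All 6 derivative libraries lay under parental A. The log2 fold change was −2.62 in PR1 and −2.82 in PR2 (SE 0.64 each, limma adjusted p = 0.0210 and 0.0104), and −0.21 between PR2 and PR1 (0.863). The fall in PR2 passed under all 17 alternatives (limma adjusted p at most 0.0464). The fall in PR1 was lost with no filter on low values and without parental B, parental C or PR1 A (limma adjusted p from 0.0503 to 0.0811).

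ASNS (asparagine synthetase), the highest of the amino acid enzymes and a gene with the composite site printed above, was at 76.3, 292 and 462 FPKM in parental cells, 101, 98.1 and 134 in PR1 and 190, 92.1 and 80.4 in PR2. Parental A was the lowest of the 9 libraries and parental C the highest, so the groups overlapped. Its log2 fold changes were −0.98 in PR1 and −0.95 in PR2 (SE 0.56 each, limma adjusted p = 0.285 and 0.258). Without the 3 A libraries, which held its lowest parental and highest PR2 value, they were −1.67 and −2.08 (limma adjusted p = 0.00526 and 0.00131). Over the 17 alternatives they ran from −1.73 to −0.44 in PR1 and from −2.08 to −0.41 in PR2, passing under 2 of them in each. GARS (glycyl-tRNA synthetase), the higher of the 2 synthetases, was at 104, 191 and 269 FPKM in parental cells, 145, 103 and 121 in PR1 and 233, 132 and 117 in PR2. Its groups overlapped in every comparison, with log2 fold changes of −0.52 in PR1 and −0.19 in PR2 (SE 0.35 each, limma adjusted p = 0.368 and 0.739). Without the 3 A libraries, which held its lowest parental and highest PR2 value, they were −1.01 and −0.86 (limma adjusted p = 0.0140 and 0.0182). Over the 17 alternatives they ran from −1.01 to −0.21 in PR1 and from −0.86 to 0.12 in PR2, passing under 1 of them in each.

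Of the 15 ATF4 targets, 14 had a log2 fold change below 0 in PR1 and 13 in PR2. Over all rows 5441 of 12011 lay below 0 in PR1 and 5688 in PR2. The median over the targets was −0.81 in PR1 (from −2.62 to 0.10) and −0.27 in PR2 (from −2.82 to 0.27), beside 0.05 and 0.03 over all rows and −0.13 and −0.0046 over the chaperones. Between PR2 and PR1 the targets had a median of 0.21, with 10 above 0, beside 0.0038 and 6050 of 12011 over all rows. SHMT2, a serine and glycine enzyme of the mitochondrion, was the exception above 0 in PR1 (0.10), and PPP1R15A, which directs the phosphatase of eIF2, and PSPH, a serine synthesis enzyme, were those in PR2 (0.27 and 0.0018). These counts depend on the grouping by role. DDIT3 and ATF3, which ATF4 also raises, were grouped as transcription factors. They lay above 0 in PR2 against parental cells (0.27 and 0.69) and below 0 in PR1 (−1.27 and −0.72), none past the threshold. At an unadjusted p under 0.05 limma put 4 of the 15 (26.7%) lower in PR1 and 3 (20.0%) lower in PR2, beside 14.2% and 15.8% of all rows.

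These medians depended on which libraries were included, parental and PR2 ones among them. Without parental A the median over the targets was −1.49 in PR1 and −0.69 in PR2. Without parental C it was −0.21 in PR1 and 0.17 in PR2, so the direction in PR2 turned. Without PR2 A the median was −0.68 in PR2 against parental cells, and between PR2 and PR1 it turned to −0.09. Without PR2 C these were −0.12 and 0.39. Parental A was the lowest parental library for 14 of the 15 targets, beside 29.3% of all rows. PR2 A was the highest PR2 library for 12, beside 46.0%. Deeper falls without the A libraries follow from these orders and are no separate support. Without the 3 A libraries the median was −1.26 in PR1 and −1.22 in PR2, and 9 of the 15 targets fell in PR1 and 10 in PR2. In that setting 15 of the 43 genes (34.9%) fell in PR1, where 10.5% of all rows did, and 16 (37.2%) fell in PR2, where 13.0% did, with 0 rises in either. Of the chaperones 2 fell in PR1 there, DNAJB11 and SDF2L1, and 0 in PR2. Leaving out parental C alone gave 0 falls among the 43 genes in PR1, where 5.68% of all rows fell, and 2 (4.65%) in PR2, where 7.38% did.

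**Figure D4:**
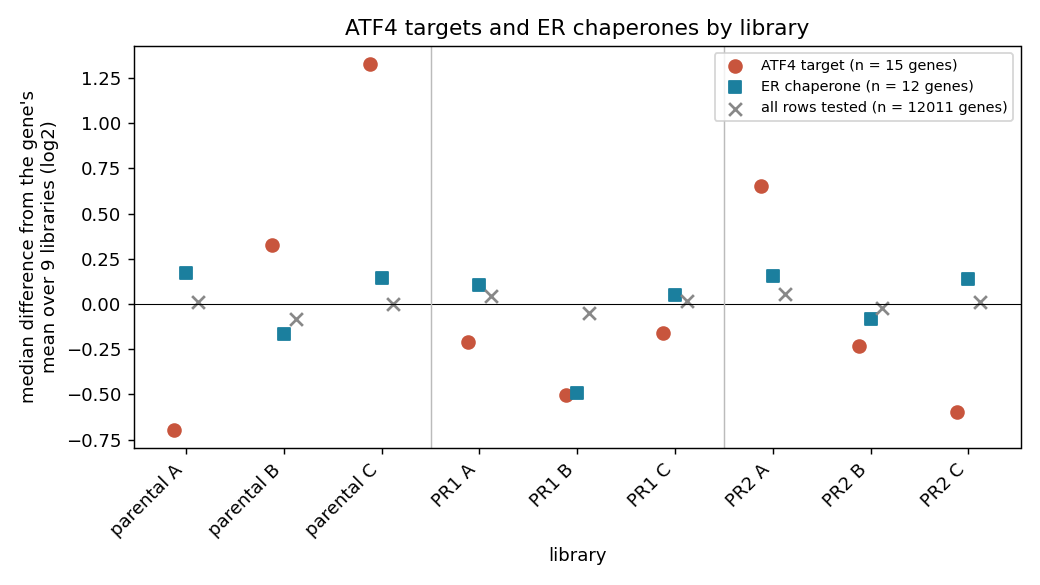
Median over the genes of a class of log2(FPKM + 1) minus the mean of the gene over 9 libraries (y axis) in each library (x axis), for 15 ATF4 targets, 12 ER chaperones and all 12011 rows tested. The ATF4 targets rank from −0.70 in parental A to 1.33 in parental C and from 0.65 in PR2 A to −0.60 in PR2 C, whereas all rows stay near 0.

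The ATF4 targets varied widely between the parental libraries. Parental C was the highest of all 9 libraries for 14 of the 15 targets (93.3%), the exception being PHGDH, which was highest in parental B. It was the highest for 14.2% of all rows tested and for 4 of the 12 chaperones. Parental A was the lowest parental library for 14 of the 15 targets, all but PPP1R15A, and for 29.3% of all rows. The ratio of the highest to the lowest parental library had a median of 4.52 over the targets, 1.30 over the chaperones and 1.43 over all rows. It exceeded 3-fold for 12 of the 15 targets (80.0%), for 1 chaperone, DNAJB9, and for 4.16% of all rows.

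CHAC1, which degrades glutathione, and TRIB3, a pseudokinase that feeds back on ATF4, had the widest parental spans of the targets and are named after their values were seen. CHAC1 was at 4.68, 24.1 and 55.7 FPKM in parental libraries A, B and C, 3.19, 2.13 and 5.21 in PR1 and 21.7, 13.4 and 5.86 in PR2. TRIB3 was at 27.3, 76.8 and 296 FPKM in parental cells, 52.6, 40.9 and 53.0 in PR1 and 98.2, 46.1 and 35.5 in PR2. In both genes parental libraries were in the order A, B, C from low to high and PR2 libraries in the opposite order. The PR1 libraries differed by at most 1.29-fold for TRIB3 and 2.45-fold for CHAC1. The log2 fold change of CHAC1 in PR1 was −2.21 (SE 0.72, limma adjusted p = 0.0660), with PR1 C above parental A, and that of TRIB3 was −0.81 (SE 0.69, 0.483). Without parental A that of CHAC1 was −3.12 (limma adjusted p = 0.00437), and over the 17 alternatives it ran from −3.12 to −1.46.

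The class as a whole showed the same orders. The log2(FPKM + 1) value of library C minus that of library A had a median over the 15 targets of 2.03 in parental cells, with all 15 above 0, of 0.01 in PR1, with 9 above 0, and of −1.13 in PR2, with 3 above 0. Over all rows these medians were −0.01, −0.02 and −0.02, and over the chaperones −0.07, −0.09 and 0.07. PR2 A was the highest PR2 library for 12 of the 15 targets and PR2 C the lowest for 12. In PR1 the ratio of the highest to the lowest library had a median of 1.40 over the targets, beside 1.41 over all rows, and in PR2 it was 2.22, beside 1.33. The chaperones followed another order, since PR1 B was the lowest PR1 library for all 12 of them (1.64 as the median ratio), where it was the lowest for 39.8% of all rows.

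**Figure D5:**
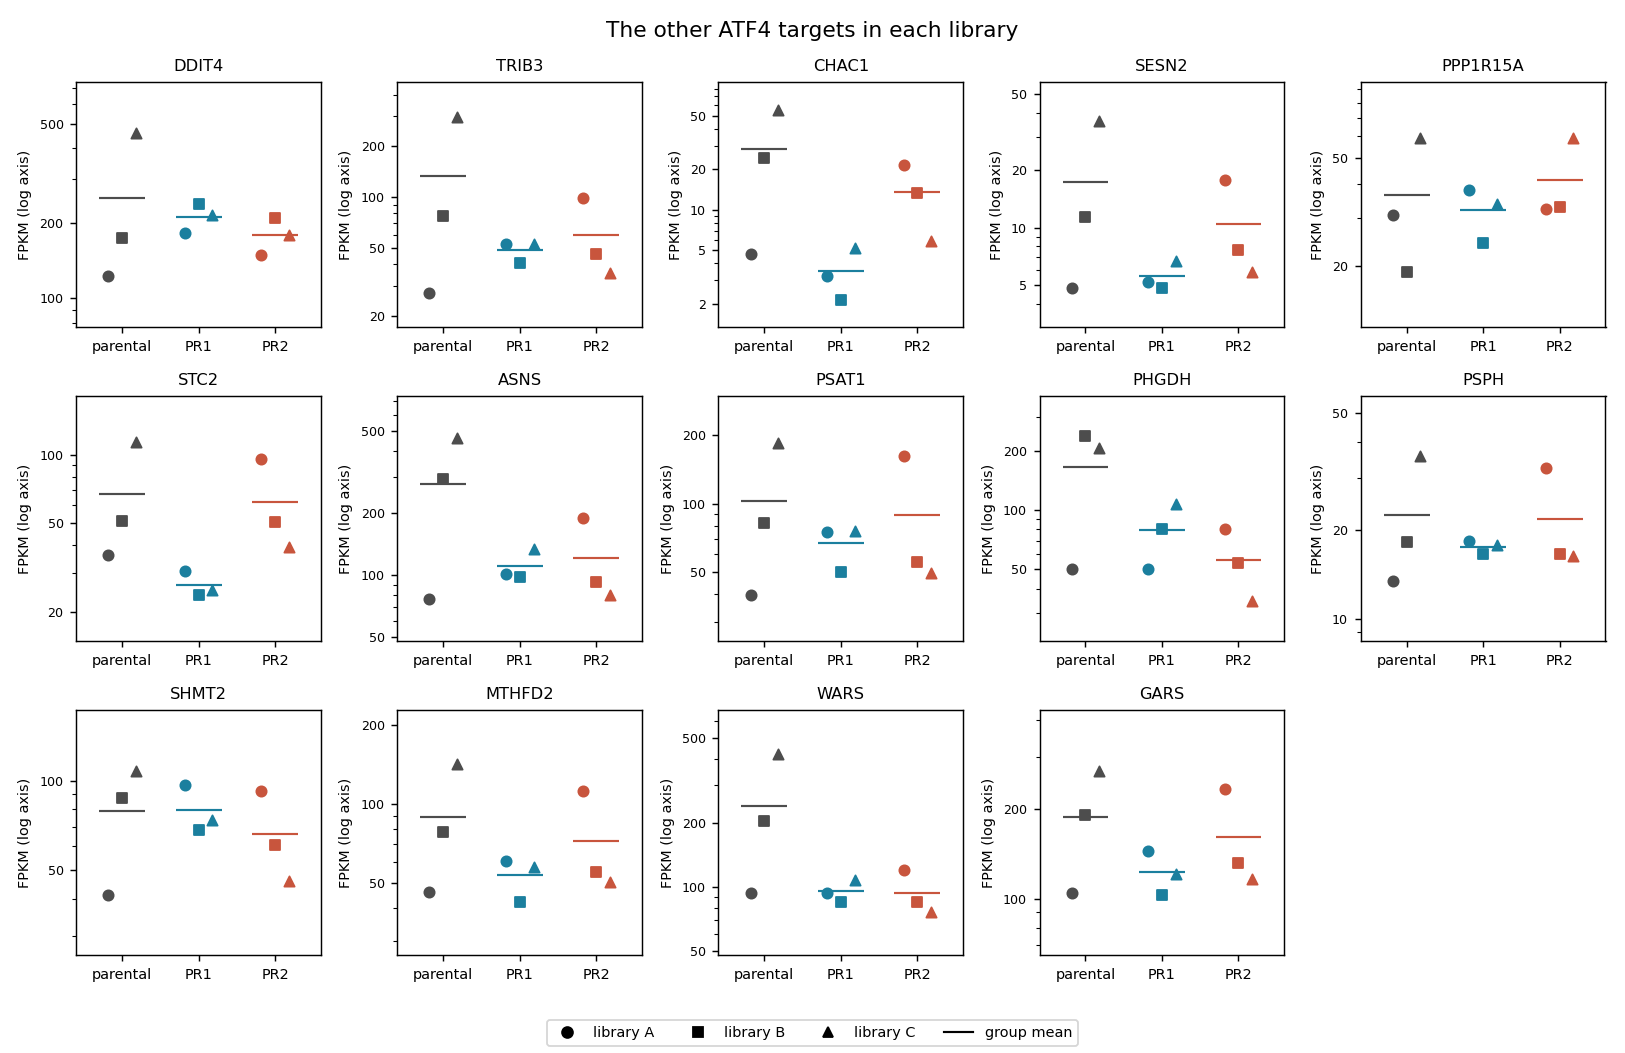
FPKM on a log axis in each library for the 14 ATF4 targets other than GDF15, with the group mean as a line and the letter as the marker. Triangles (library C) are highest among parental libraries in 13 of the 14 panels, and in PR2 circles (library A) are highest in 12.

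The letters were also compared over the 3 groups, in a fit with a term for group and a term for letter. Between B and A, 2 of the 43 genes (4.65%) differed, where 11.6% of all rows did. DNAJB11 was lower in B by a log2 of −0.57 (SE 0.12, limma adjusted p = 0.0279), at 59.5 against 81.3 FPKM in parental cells, 35.4 against 59.8 in PR1 and 43.8 against 64.1 in PR2. GDF15 was higher in B by 1.47 (SE 0.31, limma adjusted p = 0.0289), in each of the 3 groups. Both calls were lost with no filter on low values, without the PR1 group and without the PR2 group. Between C and A and between C and B, limma called 0 of the 43 genes and 0 of the 12011 rows (0% in each), with 8 (18.6%) and 14 (32.6%) of the 43 at an unadjusted p under 0.05, beside 20.4% and 15.7% of all rows. The class of ATF4 targets, whose A and C libraries stood in opposite order in parental cells and PR2, had a median letter difference of 0.53 between C and A in that fit. It was −0.57 without the parental group, 0.61 without PR1 and 1.11 without PR2, so 0.53 is an average and not a difference that the groups share. A difference between letters within a group has no replicates, because a group has 1 library per letter.

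Another 73 genes of the same pathways were listed, of which 63 were tested. In PR1 against parental cells 1 (1.59%) rose and 8 (12.7%) fell, where 7.56% and 7.98% of all rows did. In PR2 against parental cells 2 (3.17%) rose and 3 (4.76%) fell, beside 13.6% and 9.83%. In PR2 against PR1 6 (9.52%) rose and 1 (1.59%) fell, beside 11.0% and 8.92%. The rise in PR1 was MBTPS1, the protease that cuts ATF6, from a mean of 24.8 to 35.6 FPKM (log2 fold change 0.50, limma adjusted p = 0.0315). That call was lost under 9 of 17 alternatives, among them quantile normalization, only the 2 groups, and leaving out any parental library, PR1 B, PR1 C, PR2 B or PR2 C. The largest falls in PR1 were CREB3L1, an ER-bound transcription factor cut by the same protease (−2.30, limma adjusted p = 0.0203), CBS, an enzyme of cysteine synthesis (−1.40, 0.0363), and VLDLR, a lipoprotein receptor (−1.25, 0.00351). CREB3L1 was at 5.48, 36.1 and 17.2 FPKM in parental cells, 1.04, 4.61 and 2.18 in PR1 and 9.50, 15.3 and 13.0 in PR2. It was thus lower in every PR1 library than in any other library. VLDLR was at 1.57 FPKM on average in parental cells and 0.0619 in PR1, near the limit of the filter.

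In PR2 against parental cells UBE2J1, a ubiquitin-conjugating enzyme of ER degradation (log2 fold change 0.67, limma adjusted p = 0.0452), and WFS1, a calcium regulator of the ER membrane (0.59, 0.0292), rose. LARS, the leucyl-tRNA synthetase (−0.69, limma adjusted p = 0.0186), SEC61B, a subunit of the ER translocon (−0.64, 0.0207), and ALDH18A1, a proline synthesis enzyme (−0.57, 0.0356), fell. In PR2 against PR1 the largest rises were CREB3L1 (2.02, limma adjusted p = 0.0297), WFS1 (1.24, 0.000862) and UBE2J1 (0.84, 0.0212), and CREB3 fell (−0.50, 0.0275). WFS1 lay between 5.67 and 5.91 FPKM in PR1, between 7.99 and 11.7 in parental cells and between 12.5 and 17.0 in PR2, so that no groups overlapped. Without the 3 A libraries 1 of the 63 rose and 18 (28.6%) fell in PR1, where 9.62% of all rows rose and 10.5% fell. In PR2 2 rose and 17 (27.0%) fell there, beside 15.2% and 13.0%. The falls in both included the tRNA synthetase genes SARS, YARS and MARS. Without PR2 B or without PR2 C 0 of the 63 genes passed in PR2 against parental cells, where 9.94% and 8.58% of all rows rose and 7.19% and 6.44% fell. With the letter as a block 5 rose and 8 fell in PR1, beside 13.4% and 12.3% of all rows, and 9 rose and 3 fell in PR2 against PR1, beside 17.1% and 14.5%. Of the calls of these genes, those of LARS in PR1 and of WFS1 in PR2 against PR1 passed under all 17 alternatives. The filter at 5 FPKM removed VLDLR and SLC1A4 from the test, and their calls in PR1 passed under all the other alternatives. The others of the named calls were lost under 3 to 10 of 17, each with some library left out.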

How the data were processed

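RNA was measured in 9 libraries, 3 each from parental LC-2/ad, PR1 and PR2. Per the submitters' processing notes TopHat2 2.0.14, Cufflinks 2.2.1 and Cuffdiff 2.2.1 were used, with the builds GRCh37 and hg19. The sources used here do not give the annotation, the strand setting or the read numbers. The table deposited by the authors holds FPKM values. The unit is inferred, because the header names none. Absolute depth is unknown.

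Values were analysed as log2(FPKM + 1), a scale that understates changes of low genes, in R 4.3.3 with limma 3.58.1. A row was tested if at least 3 of 9 libraries held 1 FPKM or more (12011 rows). All entered 1 fit with a mean per group and an intensity trend, and p-values were two-sided and adjusted by Benjamini-Hochberg over all of them. The script was tested on simulated data with 200 changed genes. The 43 genes, the list of 73 others, the roles and the markers were chosen with earlier results of these data known. Values in every library are given for genes past an adjusted p of 0.05, the highest gene of each role and HSPA5, XBP1, ATF4, DDIT3 and ASNS, and further genes are marked as added after their values were seen. Of the 73 others, up to 3 rises and 3 falls per comparison are named.

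Letters were checked for pairing by the correlation across rows of deviations from group means. It was 0.31, 0.48 and 0.16 for A, B and C in PR1 and parental cells and 0.53, 0.54 and 0.25 in PR2 and PR1, which were taken as pairs. It was 0.30, 0.42 and 0.014 in PR2 and parental cells, which were not. Alternatives were a pseudocount of 0.1, no filter, a filter at 5 FPKM, quantile normalization, no intensity trend, a letter block, 2 groups only, each library left out and no A libraries. No alternative left out all B or all C libraries. Leaving out the A libraries takes away the lowest parental and the highest PR2 value of ERN1, XBP1, ATF4, ASNS and GARS. Deeper falls of these genes in that setting follow from values already seen.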

Additional observations from a re-analysis of the deposited data

How the results depend on the processing

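Counts of the 43 genes that changed are given here under the alternatives that moved them. In PR1 against parental cells 2 fell, and 0 with no filter, 1 with a filter at 5 FPKM, 1 with only the 2 groups, 15 without the 3 A libraries and 0 to 10 with 1 library left out. Of all rows 7.98% fell in the main fit, and 7.65%, 6.53%, 6.96% and 10.5% in the first 4 of these settings. With 1 library left out 5.20% to 8.65% of all rows fell. In PR2 against parental cells 4 fell, and 3 with quantile normalization, 5 with only the 2 groups, 16 without the 3 A libraries and 2 to 8 with 1 library left out, while 0 rose, and 0 to 1 with 1 library left out. The shares of all rows that fell were 9.83%, then 11.6%, 8.90% and 13.0%, and 6.44% to 10.4% with 1 library left out. The shares that rose were 13.6%, and 8.58% to 13.9% with 1 library left out. In PR2 against PR1 1 rose, and 0 with no filter, at 5 FPKM and without the 3 A libraries, 2 (CANX added) with quantile normalization or no intensity trend, 4 with only the 2 groups and 0 to 3 with 1 library left out, while 2 fell, and 1 to 2 with 1 library left out. Of all rows 11.0% rose in the main fit, and 7.95%, 9.34%, 11.6%, 10.8%, 11.0% and 10.9% in the first 6 of these settings. With 1 library left out 6.44% to 11.4% rose. All rows that fell were 8.92%, and 5.25% to 8.94% with 1 library left out. With the letter as a replicate block 4 (9.30%) fell in PR1, where 12.3% of all rows did, and 3 (6.98%) rose in PR2 against PR1, where 17.1% did. In PR2 against parental cells, where letters were not taken as pairs, 1 rose and 6 fell with the replicate block, beside 19.5% and 14.7% of all rows. They included DNAJC3 (0.46, limma adjusted p = 0.0325), MANF (−0.53, 0.0394) and DNAJB11 (−0.45, 0.0200). Between letters B and A 2 differed, and 3 (CANX added) with no intensity trend and 0 with no filter or without the PR1 or PR2 group. The shares of all rows were 11.6%, then 11.4%, 0%, 0.00833% and 0.333%. Between C and A 0 differed, and 1 without the PR2 group, where 0.258% of all rows did. The cause of these shifts was not tested. No call changed sign.

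Of the 9 calls of single genes, 3 held under every alternative: ERN2 in both comparisons and GDF15 in PR2. The values of HSP90B1, PSAT1, PSPH and ATF4, which have pseudogene copies, and of GARS, which has an antisense partner, are uncertain, since the handling of shared reads and of strand is not given. With 3 libraries per group, the precision for the ATF4 targets was limited by parental libraries that differed by a median of 4.52-fold.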
